A study of Drosophila melanogaster with 12 samples.

Results

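Females of Drosophila melanogaster that had mated a single time were compared with virgins across all genes of the array, 6 hours after mating. The comparison used 8 of the 12 arrays of the study, 4 single mated and 4 virgin, chosen by their titles, and all 18769 probe sets that are not Affymetrix controls. Of these, 13647 carried exactly 1 gene symbol and stood for 11982 genes, each read through its brightest probe set. Both groups came from LHM, a large outbred wild-type laboratory population. All females were collected as virgins on day 9 under carbon dioxide, housed singly and moved to vials with live yeast on day 12. Single mated females were paired with tester males, the non-virgin sons of a cross between 2 inbred lines made from LHM. Day 13 is taken as the day of this mating: they had no males on day 12, and the text available on the treatment ends where day 13 begins. Virgin females had no males on day 12, were also briefly anesthetized then, and were frozen without mating. The 4 double mated arrays, of females mated on days 12 and 13, helped to estimate the spread and set no mean of the comparison. Every array held RNA of 8 whole flies from an extraction of its own. P-values therefore measure the spread between pools of 1 cohort of females.

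Mating changes female fruit flies through sperm, through seminal fluid proteins such as sex peptide, and through the act itself. Females then lay more eggs, refuse courtship, eat more and enlarge the gut, and juvenile hormone, ecdysone, octopamine and several peptides are known to carry these responses. In a whole-fly sample the ovary, gut, fat body, muscle and nervous system all contribute RNA. Fewer cells of a type and less RNA per cell cannot be told apart in such samples.

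All levels are log2 RMA signals, and differences are single mated minus virgin. The groups separated along the first principal component of the 12 arrays, which held 46.5% of the variance. Single mated arrays lay between -1.84 and 8.78 on it and virgin arrays between -23.99 and -18.05. Array medians were 6.01 to 6.07 in single mated and 5.97 to 5.98 in virgin females, so they did not overlap. Centring the arrays on these medians changed the counts of called genes given below, from 675 to 534 higher and from 855 to 1642 lower. What set the medians apart was not tested. Defining markers of the ovary and midgut were among the brightest probe sets: osk averaged 13.22 ± 0.02 in single mated and 13.13 ± 0.08 in virgin females (SD, n = 4 each), and alphaTry 14.27 ± 0.10 and 14.24 ± 0.07. The germline helicase vas was dimmer, at 6.26 ± 0.25 in single mated and 6.63 ± 0.15 in virgin females. The number of arrays limits the precision.

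A single mating was followed by many small differences and few large ones. A gene is called at a Benjamini-Hochberg adjusted p under 0.05 in limma, adjusted over all probe sets. By this rule 1530 of 11982 genes were called, which is 12.8% of them. Of these, 675 were higher (5.63%) and 855 lower (7.14%) in single mated females. Over probe sets, 1813 were called (9.66%), 843 higher (4.49%) and 970 lower (5.17%). The balance of directions depended on the scaling: 46.5% of called probe sets were higher, against 63.2% after cyclic loess and 641 of 2567 after centring the arrays on their medians. The count depended on single arrays too. The 1530 called genes became 742 without single mated replicate 4, 756 without virgin replicate 3 and 975 without virgin replicate 1.

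Increases were the larger changes. The 675 genes called higher had a median difference of 0.43, with 1 in 10 above 0.90, while the 855 called lower had a median size of 0.30, with 1 in 10 above 0.48. More than 2-fold changes were rare: 54 genes were higher (0.451% of all) and 14 lower (0.117%). Differences between 0.25 and 0.5 made up 343 of the increases and 583 of the decreases. Among the 675 increases, 643 had all 4 single mated arrays above all 4 virgin arrays, and 828 of the 855 decreases had them all below. Such separation was common in this comparison, since 26.4% of all genes showed it in 1 direction or the other. The median difference over all genes was -0.01, and 46.8% of genes had a positive difference.

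**Figure D1:**
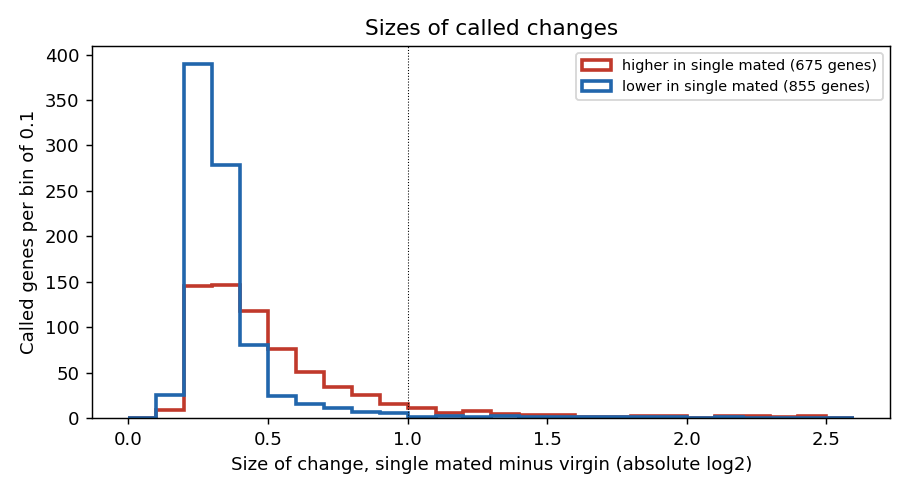
Number of called genes (y axis) in bins of 0.1 of the size of the change on the log2 scale (x axis), in red for the 675 genes higher and in blue for the 855 genes lower in single mated females. Decreases pile up at a median of 0.30, while increases, with a median of 0.43, spread further past the dotted line at 2-fold.

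Called genes were not spread evenly over signal levels. Genes were divided by mean level into 4 classes of like size. In the dimmest class, 0.834% were called higher and 0.434% lower. Class 2 had 6.34% called higher and 4.34% lower. In class 3 decreases prevailed, with 8.31% higher and 13.6% lower, and in the brightest class 7.04% were higher and 10.2% lower. The large increases sat in the middle of the range, with 19 and 26 of the 54 in classes 2 and 3, 9 in the brightest class and 0 in the dimmest.

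**Figure D2:**
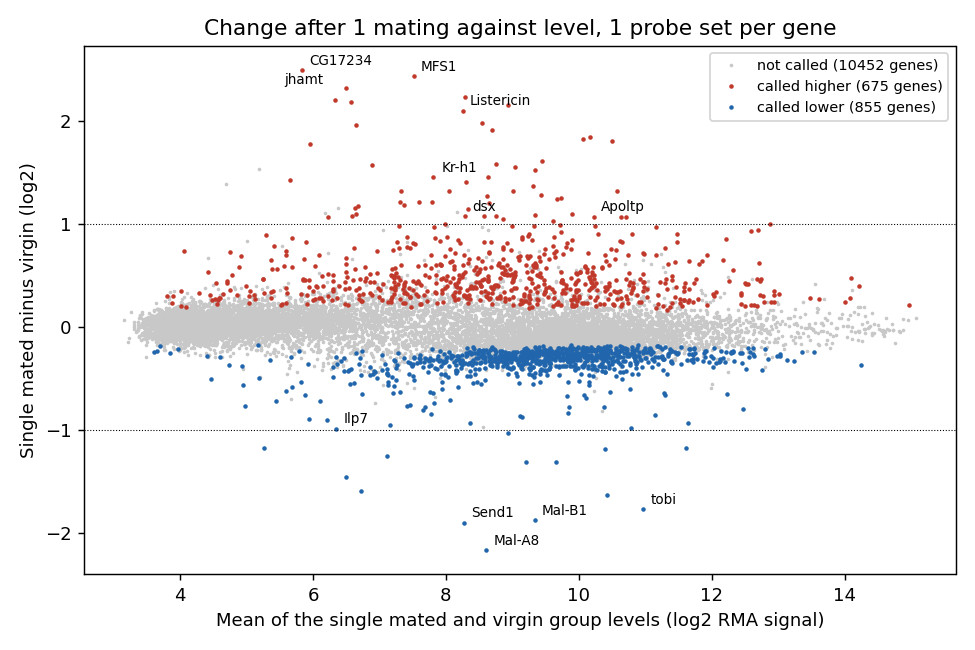
Difference between single mated and virgin females on the log2 scale (y axis) against the mean of the 2 group levels in log2 RMA signal (x axis), 1 point per gene, with called genes in red (higher) and blue (lower) and dotted lines at 2-fold. Called decreases form a dense band close to 0 at bright levels, and the named increases such as jhamt and MFS1 stand well above 2-fold.

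Juvenile hormone, made by the corpora allata, promotes yolk uptake and egg production in adult females. Its synthesis enzyme jhamt, which makes the last methylation step, measured 7.74, 7.14, 7.92 and 7.84 on the single mated arrays, against 5.27, 5.24, 5.37 and 5.44 on the virgin arrays. Every single mated array exceeded every virgin array by more than 1 log2 unit, and the level was 5.01-fold higher (95% interval 3.90 to 6.45, adjusted p = 5.42e-06 in limma). Kr-h1, the transcription factor that the hormone induces, stood at 8.42, 8.47, 8.59 and 8.65 after mating and at 6.89, 7.17, 6.93 and 7.31 in virgins, 2.74-fold higher (2.27 to 3.30). Jhe, an esterase that breaks the hormone down, read 6.57, 6.24, 6.44 and 6.24 in single mated and 4.69, 5.19, 4.85 and 5.05 in virgin females, 2.69-fold higher (2.28 to 3.16). Synthesis, response and breakdown genes thus all rose, with no overlap between the groups. They were the only 3 of 16 measured juvenile hormone and mevalonate genes to be called (18.8%, against 5.63% of all genes called higher). The list median was -0.04. All 3 stayed called whichever of the 12 arrays was left out.

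Ecdysone, a steroid hormone made in the adult ovary, was also represented. Of 21 measured genes of its synthesis and response, 4 were higher and 0 lower, and 4 became 2 without virgin replicate 1, single mated replicate 3 or single mated replicate 4. The largest change was in spo, a Halloween-family P450 of ecdysone synthesis, which rose 1.77-fold (1.48 to 2.12, adjusted p = 0.00131), and br, an ecdysone-induced transcription factor, rose 1.37-fold (1.20 to 1.58). Only the brightest of 5 br probe sets was called. Among 17 insulin and adipokinetic hormone genes, 2 were higher (11.8%) and 3 lower (17.6%). Dawdle, daw, an activin-like ligand, rose 1.63-fold (1.43 to 1.84), and the kinase Akt 1.27-fold (1.14 to 1.41). Ilp7, an insulin-like peptide made in abdominal neurons, went the other way. It measured 6.26, 5.62, 5.93 and 5.60 in single mated females, against 6.84, 6.85, 6.98 and 6.69 in virgins, and no arrays of the 2 groups overlapped (0.503-fold, 0.395 to 0.641, adjusted p = 0.00234).

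Several genes known from postmating behaviour and egg release changed. Of 14 sex peptide receptor, octopamine and oviduct genes, 4 were higher (28.6%, against 5.63% of all genes). The 1 lower was Ilp7 (7.14%, the same share as over all genes), and 2 were lower without single mated replicate 3. The sex differentiation gene dsx measured 8.77, 8.66, 8.91 and 9.00 after mating and 7.57, 7.97, 7.58 and 7.90 in virgins. It was 2.11-fold higher (1.77 to 2.51, adjusted p = 0.000173), with groups well apart, while a dim second probe set of dsx was not called (0.22, adjusted p = 0.0688). SPR, the sex peptide receptor, read 7.60, 7.95, 8.00 and 7.99 in single mated and 7.23, 7.19, 7.22 and 7.52 in virgin females, 1.51-fold higher (1.31 to 1.74). Its dim second probe set was not called either, at -0.05. Of 29 neuropeptide genes 4 were higher (13.8%) and 0 lower, among them CNMa at 1.50-fold (1.27 to 1.77), Nplp1 at 1.30-fold (1.17 to 1.44) and AstC at 1.22-fold (1.11 to 1.34). Neurotransmission and synapse genes had 4 of 21 higher. That count became 2 without virgin replicate 2 or 3, or single mated replicate 1 or 2. Gad1, which makes the transmitter GABA, rose 1.32-fold (1.19 to 1.48) and the vesicle protein gene Syn 1.35-fold (1.19 to 1.55). The clock repressor gene cwo rose 1.35-fold (1.19 to 1.53) with its second probe set called as well. Cipc, whose mammalian counterpart is a partner of the CLOCK protein, is outside that list and rose 3.90-fold (3.00 to 5.06).

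Receptor genes of smell and taste had few calls. Odorant, taste and ionotropic receptors had 0 of 166 higher and 2 lower, with 12 at an unadjusted p under 0.05 in limma, a level that 30.4% of all genes reached. That count of 2 became 1 without virgin replicates 2, 3 or 4 or single mated replicates 1, 3 or 4. Most receptors are expressed in few cells, and their median difference was 0.01. Of 47 odorant-binding protein genes 4 were higher (8.51%, near the 5.63% of all genes) and 1 lower. The 1 lower became 0 without virgin replicate 3 or single mated replicates 3 or 4, and 2 without double mated replicate 4. The 4 became 1 or 2 without any virgin array and without single mated replicates 1, 3 or 4. Obp83ef was the member with the largest change, at 2.09-fold (1.63 to 2.69, adjusted p = 0.00188). Calls were made for 5 of 15 genes of the photoreceptors, 3 of them higher and 2 of them lower. The 2 lower became 0 without virgin replicate 1 or single mated replicate 4, and 1 without virgin replicates 2 or 3, single mated replicates 1 or 3, or double mated replicates 1 or 3. The 3 became 1 without virgin replicate 3, single mated replicate 2 or single mated replicate 4, and inaC, the eye protein kinase C, rose 1.25-fold (1.13 to 1.39).

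Among digestive enzymes, maltases, which split sugars, had 0 of 10 members higher and 7 lower, against 7.14% of all genes called lower. The lists were chosen with earlier results of these data known, so such shares describe and do not test. All 10 maltases had a negative difference and the list median was -0.67. The 7 became 4 without virgin replicate 1 or virgin replicate 4. Mal-B1 measured 8.82, 8.50, 8.72 and 7.54 after mating and 10.22, 10.01, 10.45 and 10.41 in virgins, so every single mated array lay over 1 unit below the lowest virgin array (0.272-fold, 0.196 to 0.377, adjusted p = 0.000292). Mal-A8 fell to 7.65, 7.37, 7.81 and 7.28 in single mated females, against 10.12, 9.03, 9.85 and 9.78 in virgins (0.222-fold, 0.148 to 0.334). It had the largest decrease of any named gene. Mal-A7 fell to 0.323 of the virgin level (0.221 to 0.471). The alpha-glucosidase gene tobi, first known as a target of brain insulin, read 10.33, 9.85, 10.40 and 9.76 after mating and 11.90, 11.60, 11.82 and 12.08 in virgins (0.293-fold, 0.210 to 0.409). It belongs to a list of 16 other gut carbohydrases, lipase and lysozymes with a median of 0.22. Of these 2 were higher and 2 lower, 12.5% each, against 5.63% and 7.14% of all genes. The mannosidase gene LManVI of that list rose 1.79-fold (1.38 to 2.30). The 2 higher became 1 without any virgin array or single mated replicates 2 or 4, and 4 without double mated replicate 4, and the 2 lower became 1 without virgin replicates 1, 2 or 4 or single mated replicate 4.

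Jonah proteases, serine endopeptidases of the midgut, had 5 of 13 members higher (38.5%, against 5.63% of all genes) and 0 lower. Their list median was 0.41, and the 5 became 3 without single mated replicate 4. Jon25Bii measured 13.00, 13.27, 13.02 and 13.38 after mating and 12.29, 12.68, 12.29 and 11.61 in virgins, 1.93-fold higher (1.45 to 2.55, adjusted p = 0.00747). Jon99Fi rose 1.87-fold (1.41 to 2.48) and Jon65Aiii, one of the brightest, 1.39-fold (1.22 to 1.57). The groups did not overlap in any of the 3. Of 14 trypsins 4 were higher (28.6%) and 1 lower (7.14%, the same share as over all genes). The 4 became 2 without single mated replicate 4. Here lambdaTry rose 1.58-fold (1.33 to 1.86) while Try29F fell to 0.332 of the virgin level (0.198 to 0.556), with arrays that overlapped. The bright midgut markers alphaTry and betaTry were not called, with differences of 0.03 and 0.11.

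Some genes of absorption and ion handling were called higher. Of 12 alkaline phosphatase genes 3 were higher, and all 12 had a positive difference with a median of 0.30. Alp9 stood at 10.23, 10.30, 10.45 and 10.21 in single mated and 8.99, 9.06, 9.26 and 8.92 in virgin females, 2.36-fold higher (1.83 to 3.04, adjusted p = 0.000791). Its neighbour Alp10 rose 1.98-fold (1.62 to 2.42) and Alp5 1.65-fold (1.34 to 2.03). The 27 amino acid and sugar transporters had 7 members higher (25.9%) and 3 lower (11.1%, against 7.14% of all genes). The 3 became 1 without virgin replicates 2, 3 or 4 or single mated replicates 2 or 4. MFS1, a solute transporter of the major facilitator family, measured 8.83, 8.54, 8.73 and 8.84 after mating and 5.85, 6.54, 6.80 and 5.99 in virgins. It was 5.42-fold higher (4.01 to 7.33, adjusted p = 1.89e-05). Picot, a phosphate cotransporter, rose 1.67-fold (1.44 to 1.94) and the amino acid transporter sbm 1.34-fold (1.21 to 1.49). Subunits of the vacuolar proton pump had 4 of 31 higher (12.9%) with a list median of 0.04, or -0.02 after centring the arrays on their medians. The 4 became 2 without virgin replicate 3 or single mated replicate 4. Vha100-5, its largest change, rose 1.58-fold (1.35 to 1.84). The metal-binding metallothioneins had 2 of 5 higher (40.0%). MtnD read 9.88, 10.56, 10.23 and 10.79 in single mated and 9.37, 8.70, 9.37 and 8.99 in virgin females, 2.39-fold higher (1.71 to 3.34), and MtnB was 2.00-fold higher (1.47 to 2.71).

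**Figure D3:**
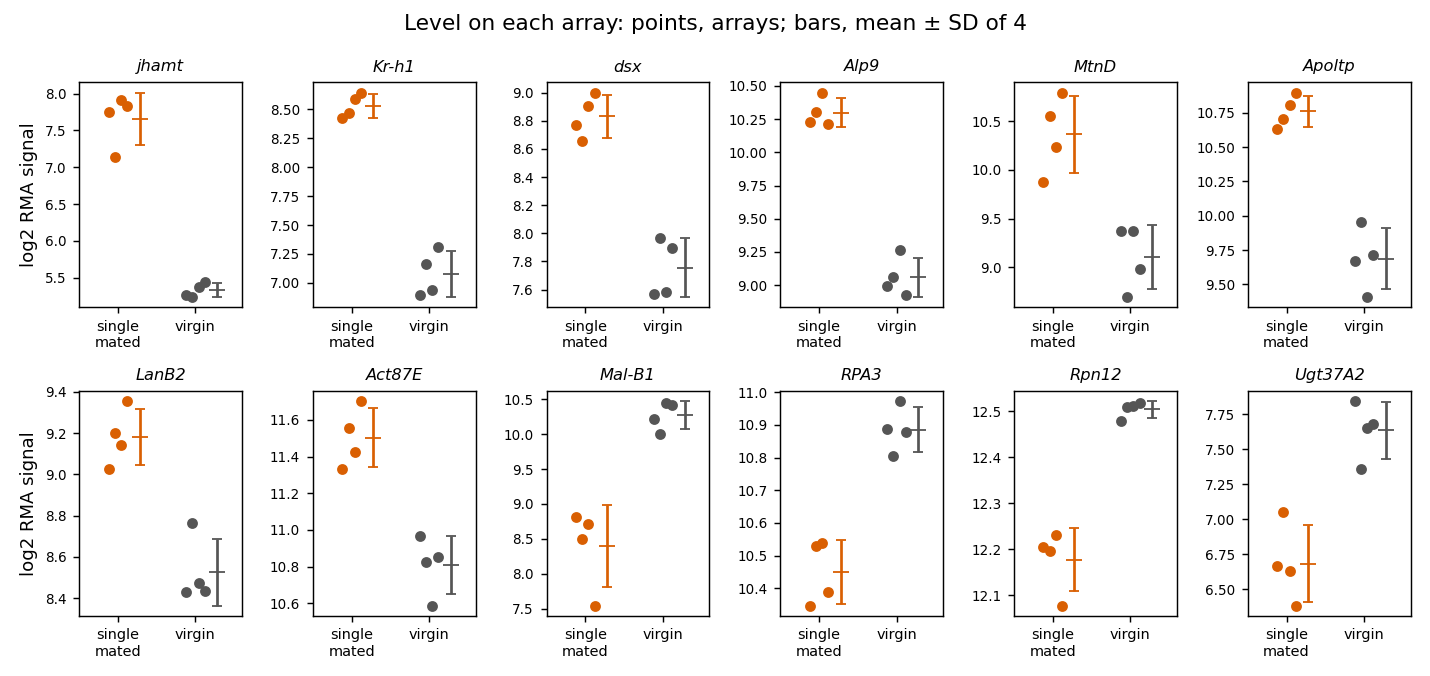
Level of 12 genes in log2 RMA signal (y axes, each with its own range) on the 4 single mated arrays (left, orange) and the 4 virgin arrays (right, grey), with bars for the mean ± SD. The groups do not overlap in any panel, which follows from the choice of called genes. Groups were apart in 95.3% of genes called higher, 96.8% of genes called lower and 26.4% of all genes. Differences are largest for jhamt and Mal-B1 and small for Rpn12, whose levels stay between 12.08 and 12.52.

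The sperm storage glands are the spermathecae and parovaria, which secrete proteases and other proteins that keep stored sperm alive. Of 12 measured gland genes 6 were higher (50.0%) and 1 lower (8.33%), against 5.63% and 7.14% of all genes, with a median of 0.50. The 6 became 3 without virgin replicate 1, virgin replicate 3, single mated replicate 3 or single mated replicate 4. CG17234, a predicted serine protease, measured 6.78, 6.67, 6.29 and 8.58 after mating and 4.17, 5.03, 4.52 and 4.60 in virgins. Single mated replicate 4 was far above the other arrays, and the 5.65-fold difference (2.51 to 12.7, adjusted p = 0.0119) was 2.00 rather than 2.50 on the log2 scale without it. The neighbouring protease gene CG17239 rose 2.06-fold (1.57 to 2.71). Send1, a spermathecal endopeptidase, opposed them with 7.67, 7.08, 6.89 and 7.67 after mating and 8.90, 9.58, 9.51 and 8.93 in virgins (0.268-fold, 0.175 to 0.409, adjusted p = 0.00137).

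Of 13 vitelline membrane and early eggshell genes 2 were higher (15.4%) and 1 lower (7.69%), against 5.63% and 7.14% of all genes. A positive difference was found in 11, and the median was 0.43. The 1 lower became 0 without virgin replicates 2, 3 or 4 or any single mated array. The 2 became 5 without single mated replicate 3, 4 without double mated replicate 1, and 1 without virgin replicates 3 or 4 or single mated replicates 2 or 4. Nudel, ndl, a follicle cell protease that helps to cross-link the eggshell, rose 1.69-fold (1.49 to 1.92, adjusted p = 0.000186). The vitelline membrane gene Vm26Aa measured 13.69, 13.88, 13.49 and 13.96 after mating and 13.58, 13.49, 12.93 and 13.37 in virgins, with overlap, and missed the threshold (adjusted p = 0.0733). Chorion genes, used at the end of egg formation, had 0 of 12 called in limma and 2 at an unadjusted p under 0.05. Of 11 yolk and lipid transport genes 4 were higher (36.4%) and 0 lower. Apoltp, the lipid transfer particle of the blood, read 10.63, 10.71, 10.80 and 10.90 in single mated and 9.67, 9.96, 9.41 and 9.71 in virgin females, 2.10-fold higher (1.79 to 2.47, adjusted p = 8.40e-05). The lipid droplet protein gene Lsd-1 rose 1.69-fold (1.41 to 2.03), and apolpp, the core of lipophorin, 1.21-fold (1.11 to 1.33). The yolk protein genes themselves were near the top of the array scale. Yp1 averaged 15.12 ± 0.03 in single mated and 15.03 ± 0.05 in virgin females (SD, n = 4 each; adjusted p = 0.301). Yp2 was called higher, by 0.17 to 0.25 on the log2 scale when single arrays were left out. That call was lost without any 1 of 6 arrays. Yp3 was not called whichever of the 12 arrays was left out, at 0.06 to 0.09.

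Genes of dividing cells had calls in the lower direction alone, each by a small amount. DNA replication genes had 0 of 29 members higher and 10 lower (34.5%, against 7.14% of all genes). All 29 had a negative difference with a median of -0.28. The groups did not overlap in 22 of the 29, against 16.7% of all genes lower and apart. The 10 became 3 without virgin replicate 3 or single mated replicate 4 and 18 without double mated replicate 4, while the list's direction held in each case. RPA3, a subunit of the single-strand binding protein, measured 10.35, 10.53, 10.54 and 10.39 after mating and 10.89, 10.80, 10.97 and 10.88 in virgins, with no overlap (0.740-fold, 0.651 to 0.841, adjusted p = 0.00712). Psf1 of the GINS helicase complex fell to 0.732 of the virgin level (0.633 to 0.847) and RPA2 to 0.791 (0.717 to 0.873). Cell cycle and chromosome segregation genes had 0 of 32 higher and 8 lower, with a median of -0.19. The 8 became 5 without virgin replicates 1 or 4, 3 without virgin replicate 3, and 2 without single mated replicate 4. The kinase gene Cdk2 fell to 0.794 (0.715 to 0.881) and the kinetochore gene Mis12 to 0.755 (0.664 to 0.858). Among histones and chromatin assembly genes 4 of 10 were lower (40.0%). The 4 became 2 without virgin replicates 1, 2 or 3 or single mated replicate 2, and 1 without single mated replicate 4. HP1c, a heterochromatin protein, fell to 0.801 (0.726 to 0.883).

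Other germline lists had negative medians as well, as did all genes of class 3 (-0.10) and of the brightest class (-0.06). Oocyte patterning and maternal regulators had 1 of 27 higher and 4 lower (14.8%) with a median of -0.14. The 1 higher became 0 without any virgin array or any of single mated replicates 2 to 4. Among those lower, plu, a regulator of the egg-to-embryo transition, fell to 0.815 of the virgin level (0.748 to 0.889). The 4 became 1 or 2 without virgin replicates 1, 3 or 4, any of single mated replicates 2 to 4, or double mated replicate 1. Germline stem cell and piRNA genes had 0 of 30 higher and 3 lower with a median of -0.14. At 10% the share lower is near the 7.14% of all genes called lower. The 3 became 0 without virgin replicate 3, 1 without single mated replicate 4, and 5 without double mated replicate 4. Early zygotic genes had 3 of 26 higher (11.5%, against 5.63% of all genes) and 0 lower, with a median of 0.15. The 3 became 1 without virgin replicates 1 or 3 or single mated replicate 1, and hry, the pair-rule repressor hairy, rose 1.50-fold (1.31 to 1.72).

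Protein turnover and splicing also had small decreases and no member called higher. Of 38 proteasome genes 0 were higher and 12 lower (31.6%), with a median of -0.17. The 12 became 7 without virgin replicate 1, 6 without virgin replicate 4 or single mated replicate 2, and 3 without virgin replicate 3 or single mated replicate 4. Rpn12, a lid subunit, read 12.20, 12.20, 12.23 and 12.08 in single mated and 12.48, 12.51, 12.51 and 12.52 in virgin females, a narrow but complete separation (0.797-fold, 0.735 to 0.865, adjusted p = 0.00266). The core subunit gene Prosalpha6 fell to 0.812 of the virgin level (0.745 to 0.885). Mitochondrial ribosomal proteins had 0 of 71 higher and 7 lower, which at 9.86% is near the 7.14% of all genes called lower. A positive difference was found in 3 of the 71. The 7 became 3 or 4 without virgin replicates 1, 2 or 3 or single mated replicates 2 or 4, and 14 without double mated replicate 4. mRpL3 fell to 0.812 (0.751 to 0.877). Sm and U proteins of the spliceosome had 0 of 23 higher and 5 lower (21.7%). The 5 became 2 or 3 without virgin replicates 1, 2 or 3 or single mated replicates 2 or 4. LSm7 fell to 0.825 (0.757 to 0.898).

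Cytosolic ribosomal proteins had 0 of 41 called in limma and 0 at an unadjusted p under 0.05, with a median of -0.03. Of 41 translation initiation factors 3 were higher, which at 7.32% is near the 5.63% of all genes called higher. Among them were eIF4G1, the scaffold of the cap-binding complex, at 1.28-fold (1.17 to 1.40), and pAbp, which binds the poly(A) tail, at 1.29-fold (1.15 to 1.45). Oxidative phosphorylation had 0 of 72 called in limma and 3 at an unadjusted p under 0.05, with a median of 0.01. Endoplasmic reticulum folding and translocation had 6 of 21 higher (28.6%) and 0 lower. That count fell to between 1 and 3 without any virgin array or any of single mated replicates 2 to 4. TRAM, a helper of the translocon, rose 1.62-fold (1.39 to 1.89, adjusted p = 0.00128).

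**Figure D4:**
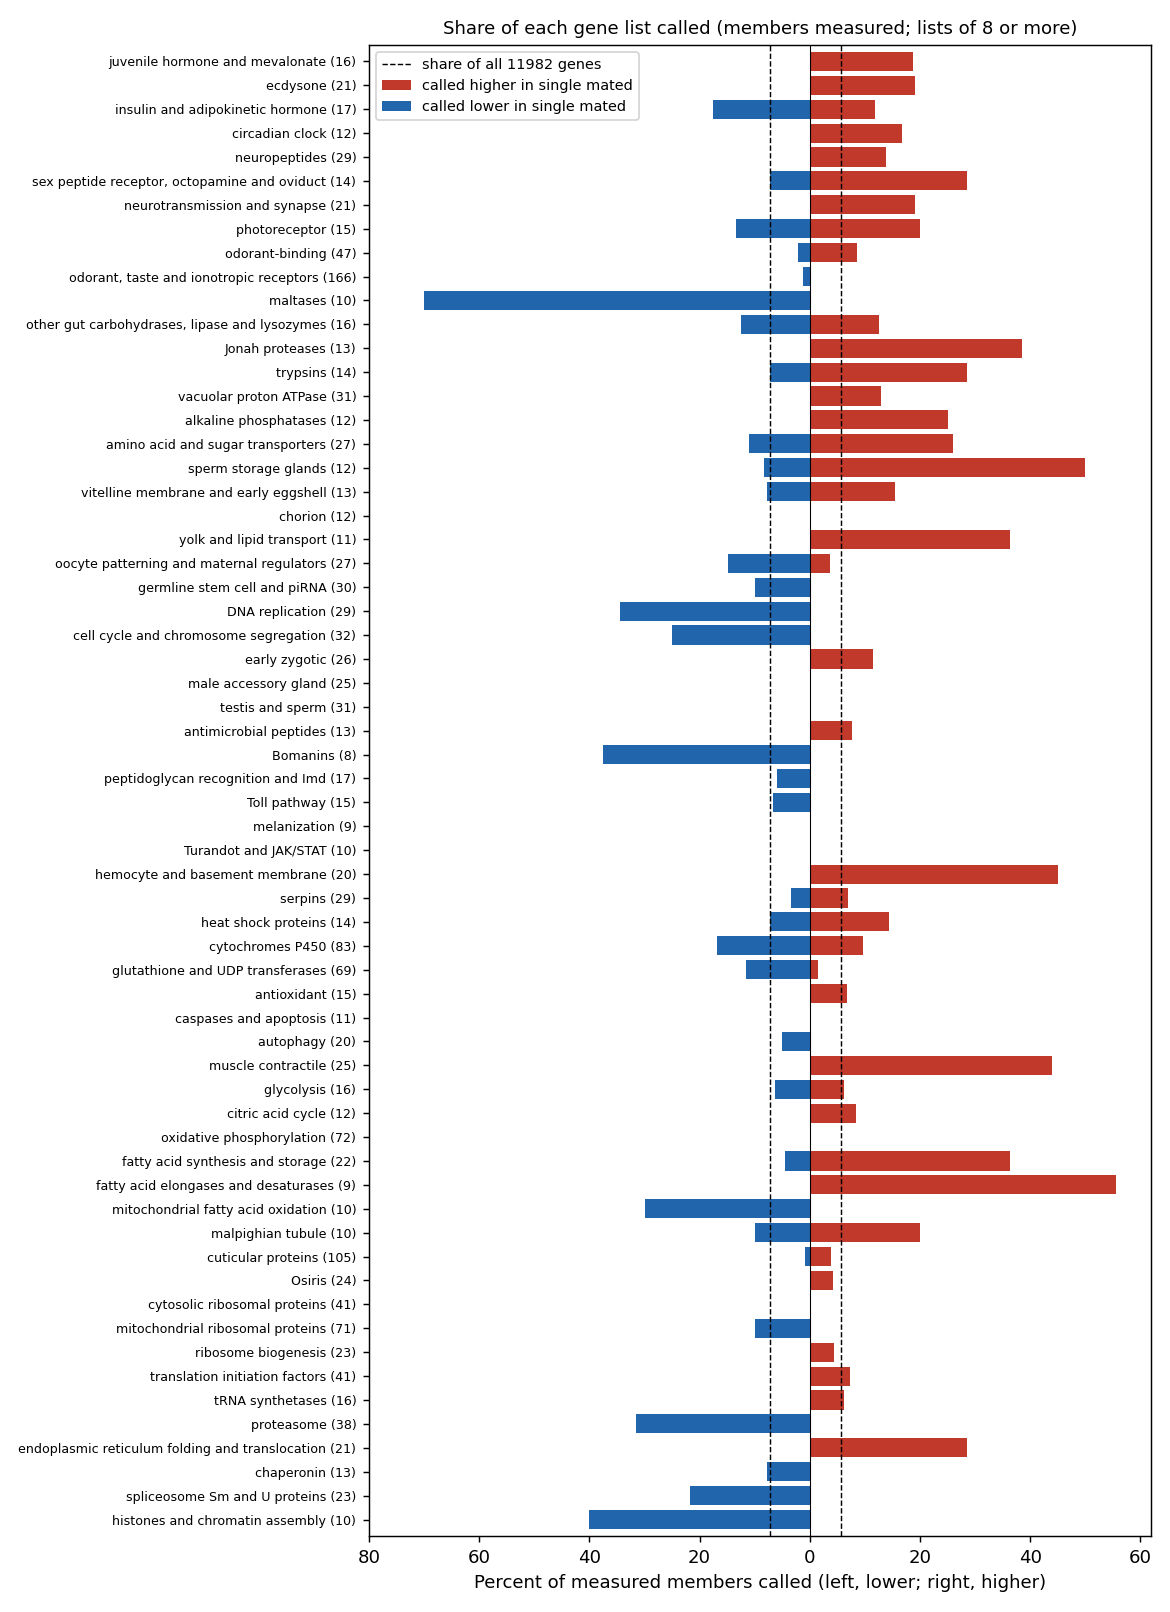
Percent of the measured members of each gene list of 8 or more that were called higher (red, to the right) or lower (blue, to the left) in single mated females, with the number measured in brackets. Dashed lines mark the shares over all 11982 genes, 5.63% higher and 7.14% lower. Maltases (7 of 10 lower) and elongases (5 of 9 higher) reach furthest. Lists were chosen with earlier results of these data known.

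The list of fat synthesis and storage had more calls higher, and that of fat oxidation only calls lower. Of 22 fatty acid synthesis and storage genes 8 were higher and 1 lower, against 5.63% of all genes called higher. The list median was only 0.09, and 13 of the 22 had a positive difference. The 1 lower became 0 without virgin replicate 3 or single mated replicate 4. AcCoAS, which makes acetyl-CoA, rose 1.57-fold (1.37 to 1.80). The 8 also count fit, a secreted fat body peptide of females rather than an enzyme of fat synthesis, which had the list's largest change. The gene fit measured 13.31, 13.14, 13.36 and 13.70 after mating and 12.15, 12.91, 12.34 and 12.10 in virgins. That was 2.00-fold higher (1.50 to 2.66, adjusted p = 0.00629). Elongases and desaturases had 5 of 9 higher (55.6%), led by bond at 1.84-fold (1.41 to 2.40). The 8 became 3 without single mated replicate 4, 5 without virgin replicate 3, and 4 without virgin replicates 2 or 4 or single mated replicates 2 or 3. The 5 became 2 without virgin replicate 3 or single mated replicate 4, and 3 without virgin replicates 2 or 4 or single mated replicates 2 or 3. Mitochondrial fatty acid oxidation had 0 of 10 higher and 3 lower (30.0%, against 7.14% of all genes). Its thiolase gene yip2 fell to 0.785 of the virgin level (0.710 to 0.868) and Arc42, an acyl-CoA dehydrogenase, to 0.817 (0.752 to 0.888).

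Muscle and matrix genes had many members higher. Muscle contractile genes had 11 of 25 higher (44.0%, against 5.63% of all genes) and 0 lower, with 23 positive and a median of 0.30. The 11 became 6 without virgin replicate 3 or single mated replicate 4, and 7 without single mated replicate 2. Act87E, a muscle actin, measured 11.33, 11.55, 11.42 and 11.70 after mating and 10.96, 10.83, 10.59 and 10.85 in virgins, with no overlap (1.62-fold, 1.42 to 1.85, adjusted p = 0.000476). Paramyosin, Prm, rose 1.48-fold (1.29 to 1.71), on both of its probe sets, while Mlp60A rose 1.34-fold (1.19 to 1.51) on 1 of its 3. The flight muscle actin Act88F was not called, at 0.10. Hemocyte and basement membrane genes had 9 of 20 higher (45.0%) and 0 lower, with a median of 0.17. The largest difference was in srp, a GATA factor of blood cells and fat body that was chosen after its values were seen, which averaged 9.01 ± 0.15 in single mated and 8.29 ± 0.23 in virgin females (SD, n = 4 each; adjusted p = 0.00317). Of the matrix genes, LanB2 read 9.03, 9.20, 9.14 and 9.35 in single mated and 8.43, 8.76, 8.47 and 8.43 in virgin females (1.58-fold, 1.38 to 1.80, adjusted p = 0.000789). LanA rose 1.38-fold (1.23 to 1.54) and LanB1 1.36-fold (1.22 to 1.51), so an alpha, a beta and a gamma chain of the laminin trimer all rose. The blood cell markers Hml and Pxn did not pass the test. Hml averaged 8.03 ± 0.10 in single mated and 8.13 ± 0.13 in virgin females (adjusted p = 0.491), and Pxn 7.56 ± 0.06 and 7.51 ± 0.12 (adjusted p = 0.726; SD, n = 4 each).

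**Figure D5:**
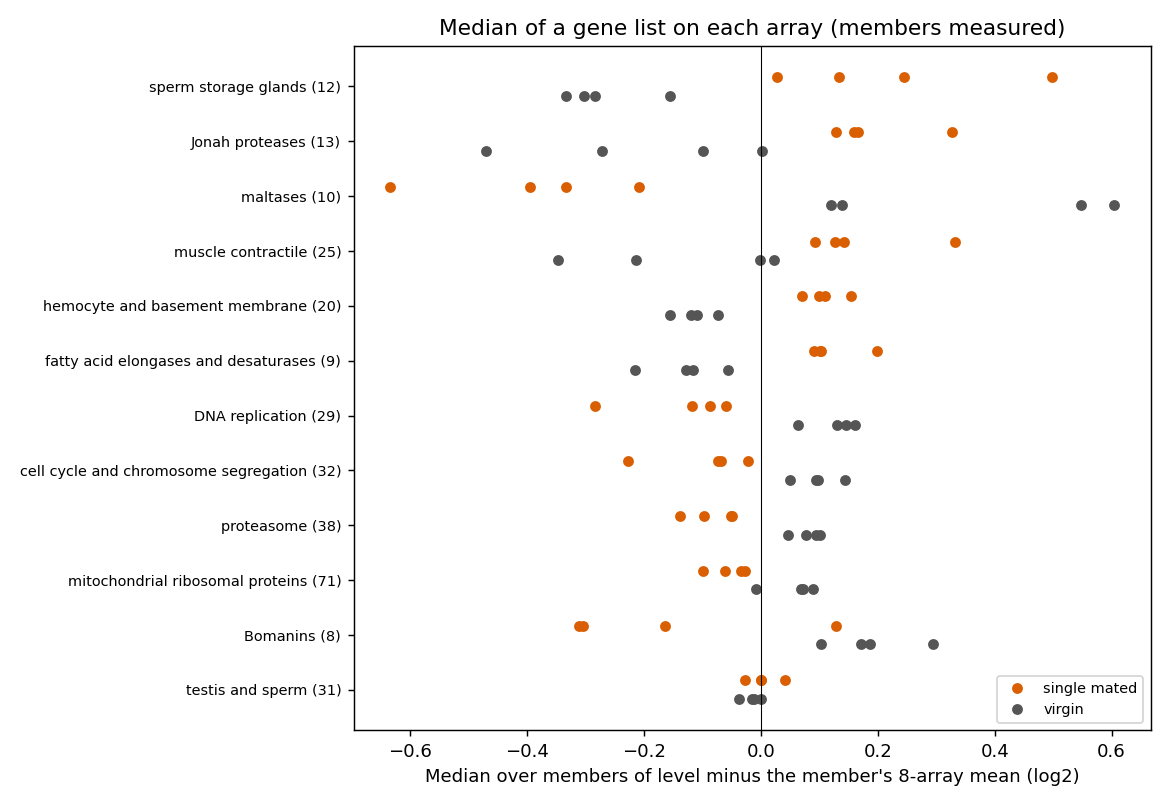
Median over the members of 12 gene lists (rows, members measured in brackets) of each array's level minus the member's mean over the 8 arrays (x axis, log2), with single mated arrays in orange above virgin arrays in grey. Maltases separate most widely, from -0.63 to -0.21 in single mated and 0.12 to 0.60 in virgin arrays, while proteasome medians separate by small amounts and Bomanin medians overlap.

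Immune genes were mostly uncalled after a single mating. Of 13 antimicrobial peptide genes Listericin alone was called (7.69%, near the 5.63% of all genes called higher), and the list median was 0.10. Without double mated replicate 3, 2 were called higher. This antibacterial protein gene measured 9.25, 9.13, 9.60 and 9.24 after mating and 7.35, 7.10, 7.21 and 7.16 in virgins (4.29-fold, 3.60 to 5.12, adjusted p = 4.51e-07). Mtk, an antifungal and antibacterial peptide, varied among single mated arrays, at 9.73, 6.60, 9.25 and 8.42, against 7.04, 7.33, 7.39 and 8.34 in virgins (adjusted p = 0.381). It was 0.57 to 1.61 on the log2 scale higher when single arrays were left out and was never called. Bomanins, short peptides induced by Toll signalling, had 0 of 8 higher and 3 lower (37.5%, against 7.14% of all genes), with a median of -0.38. BomBc2 read 10.31, 9.77, 11.01 and 10.09 in single mated and 11.34, 11.21, 11.17 and 11.41 in virgin females (0.505-fold, 0.379 to 0.673, adjusted p = 0.00670), and BomS6 fell to 0.637 (0.510 to 0.794). In both genes single mated replicate 3 was the array nearest to the virgins. The gene key, which encodes a kinase regulator of the Imd pathway, was the 1 called member of 17 peptidoglycan recognition and Imd genes, at 0.827-fold (0.766 to 0.893). At 5.88% the share lower was near the 7.14% of all genes. That count of 1 lower became 2 without single mated replicate 1 or double mated replicate 4, and 2 were higher without single mated replicate 2. Rel, the transcription factor of that pathway, averaged 9.89 ± 0.08 in single mated and 9.89 ± 0.03 in virgin females (SD, n = 4 each; adjusted p = 0.952). Melanization (0 of 9) and Turandot and JAK/STAT genes (0 of 10) had no call in limma, with 3 and 1 members at an unadjusted p under 0.05.

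Detoxification enzymes had more members lower than higher, as did all genes, with 7.14% lower and 5.63% higher. Of 83 cytochromes P450, which oxidise hormones, plant compounds and insecticides, 8 were higher (9.64%) and 14 lower (16.9%), both above the shares of all genes. The 14 became 9 without virgin replicate 3. The 8 became 3 without virgin replicate 3 and 5 without virgin replicates 2 or 4 or single mated replicates 2, 3 or 4. Cyp28d1 measured 9.64, 9.43, 9.41 and 9.16 after mating and 10.37, 10.14, 10.18 and 10.31 in virgins (0.559-fold, 0.487 to 0.641, adjusted p = 0.000186). Cyp313a4 rose 2.12-fold (1.77 to 2.53) and Cyp6a8 2.14-fold (1.71 to 2.69). All 3 had groups that did not overlap. Among 69 glutathione and UDP transferase genes 1 was higher (1.45%) and 8 were lower (11.6%). The 8 became 4 or 5 without any virgin array or single mated replicates 3 or 4. The 1 higher became 0 without virgin replicates 2, 3 or 4 or single mated replicates 2, 3 or 4, and 2 without double mated replicate 4. Ugt37A2 read 6.67, 7.05, 6.63 and 6.39 in single mated and 7.84, 7.36, 7.65 and 7.68 in virgin females (0.517-fold, 0.420 to 0.638). Ugt304A1 fell to 0.667 of the virgin level (0.600 to 0.742).

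Stress, excretion and central energy lists had 0 to 3 calls each. Of 14 heat shock genes 2 were higher and 1 lower, among them stv, a co-chaperone of muscle maintenance, higher at 1.52-fold (1.31 to 1.76) and Hsp68 at 1.34-fold (1.18 to 1.51). The 1 member lower was lost without any 1 of the 8 single mated and virgin arrays. Among 12 citric acid cycle genes Ogdh, a subunit of the oxoglutarate dehydrogenase complex, was the 1 called, at 1.39-fold (1.22 to 1.57, adjusted p = 0.00354), and 2 were called without double mated replicate 4. The peroxiredoxin gene Prx6c was the 1 called of 15 antioxidant genes, at 1.63-fold (1.38 to 1.92), where leaving out double mated replicate 4 gave 2 higher and 1 lower. Of 10 genes known from the Malpighian tubule, the fly's excretory organ, 2 were higher and 1 lower, with salt at 1.97-fold (1.65 to 2.36). The 1 lower became 0 without virgin replicates 2, 3 or 4 or single mated replicates 2, 3 or 4. Caspase and apoptosis genes had 0 of 11 called in limma and 3 at an unadjusted p under 0.05. They had 1 lower without double mated replicate 3 and 2 lower without double mated replicate 4.

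Small families held some of the largest increases. Vanin-like genes, which resemble pantetheine-cleaving enzymes, had 2 of 3 members higher. The gene vanin-like measured 9.55, 9.63, 9.67 and 9.74 after mating and 7.46, 8.09, 7.76 and 7.64 in virgins (3.76-fold, 2.74 to 5.16), and CG32751 was 4.56-fold higher (2.58 to 8.04). Of 24 Osiris genes, an insect family best known from cuticle formation, Osi19 alone was called (4.17%, near the 5.63% of all genes). It was 4.61-fold higher (3.21 to 6.62, adjusted p = 0.000186). Among 105 cuticular protein genes 4 were higher (3.81%) and 1 lower (0.952%), below the 5.63% and 7.14% of all genes. The increases were led by Pcp at 2.23-fold (1.82 to 2.74) and Cpr67B at 1.63-fold (1.45 to 1.83). That 1 lower became 0 without virgin replicates 3 or 4 or single mated replicate 4. Genes known only by a CG number supplied 28 of the 54 increases beyond 2-fold (51.9%) and 43.6% of all genes. CG31259, CG8785, CG4830, CG5191, CG17192, CG3348 and CG33510 were such genes, with increases between 3.43-fold (CG33510) and 4.70-fold (CG31259). The largest decreases included CG34040 (0.364-fold, both of its probe sets called), CG42807 (0.402-fold), CG6484 (0.403-fold) and CG16898 (0.419-fold), and Sodh1, a sorbitol dehydrogenase, fell to 0.438 of the virgin level (0.351 to 0.547).

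Genes of the male reproductive tract, whose RNA could enter with the ejaculate, were not called. Male accessory gland genes had 0 of 25 called in limma and 3 at an unadjusted p under 0.05, and testis and sperm genes 0 of 31 and 1. SP, the sex peptide gene, averaged 4.17 ± 0.12 in single mated and 4.03 ± 0.06 in virgin females (SD, n = 4 each; adjusted p = 0.246), which lies in the dimmest class of genes. The sperm tail gene dj averaged 3.30 ± 0.08 and 3.30 ± 0.18.

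Called genes often lay next to each other in the genome. Of 674 placed genes called higher, 124 (18.4%) had an adjacent measured gene also called higher, against 10.9% of all placed genes. Of 853 called lower, 226 (26.5%) had such a neighbour called lower, against 13.7% of all. Runs of 3 or more adjacent genes called the same way numbered 13 among increases and 15 among decreases. They included Mal-A6, Mal-A7 and Mal-A8, Ser12 with CG17239 and CG17234, Alp10 and Alp9 with spo and Msr-110, and vanin-like with CG32751 and CG43090. Neighbours in such families are often recent duplicates, and probes can cross-read between near-identical copies, which was not tested here.

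Double mated females, who had also mated a day earlier, were compared with single mated females at these genes. The number of matings and the time since the first mating cannot be told apart in this comparison. The comparison reuses the same single mated arrays that chose the genes, so a high or low value there enters both. Over all genes, 807 were called between double and single mated females (6.74%). Of the 15 largest increases above, 6 differed: Listericin was higher in double mated females by 1.37 on the log2 scale (adjusted p = 2.6e-05), and 5 were lower. Among those, jhamt was lower by 1.08 (adjusted p = 0.00268), MFS1 by 0.93 and CG33510 by 1.11 in double mated than in single mated females. Jhe was also lower by 0.91, while Kr-h1 (0.36, adjusted p = 0.11) and dsx (-0.04, adjusted p = 0.87) did not pass the test. Of the 15 largest decreases 3 differed, with BomBc2 higher by 0.95 and CG13482 by 1.37 in double mated females and Mal-A7 lower by 0.93. CG13482 fell to 0.491 of the virgin level in single mated females, a call lost without any of 5 arrays (adjusted p up to 0.0664). Of 5 metallothioneins 2 were called lower in double than in single mated females, and the differences were -1.26 for MtnD and -0.93 for MtnB. Ugt37A2 was higher by 1.60 (adjusted p = 2.8e-05), with a double mated mean of 8.29. Of the 83 cytochromes P450, 21 were higher and 2 lower in double than in single mated females. Among 8 Bomanins 7 were higher, and of 13 antimicrobial peptides 5, including Mtk by 2.88 (adjusted p = 0.019) and DptB by 2.43 (adjusted p = 0.0086).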

How the data were processed

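RNA from whole females was hybridized to Affymetrix Drosophila Genome 2.0 arrays. Before deposit the authors made 1 log2 value per probe set and array, and the submitters' processing notes name RMA and the affy package. Scanner files were not used here. limma 3.58.1 in R 4.3.3 (lmFit, eBayes) was fitted to the deposited log2 values of 12 arrays, with 3 group means and 9 residual degrees of freedom. In simulated data 200 of 18769 probe sets were shifted in single mated arrays. Of shifts of 0.25 on the log2 scale 0% were recovered, of 0.5 92% and of 1 98.5%. False calls numbered 0, 4 and 8. The data had 1813 called probe sets, more than the 200 shifted. This alters the adjusted p, so these shares need not hold for the data. P-values were Benjamini-Hochberg adjusted over 18769 probe sets without a filter. Of the tested probe sets, 402 had several symbols and 4720 none, and they named no gene. RefSeq matched 11894 of 11982 genes by gene ID and gave gene order alone.

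Genes were named by a rule: the 15 largest changes each way with groups apart, up to 3 called members per list by p, and 20 chosen genes, which gave 169 genes with values. The members and the 64 lists, described by counts and medians, were chosen with earlier results of these data known. Promoter motifs, planned at the outset, were not used here. Same-numbered single mated and virgin arrays correlated at -0.04, 0.02, 0.03 and -0.10, so the numbers do not pair them.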

Additional observations from a re-analysis of the deposited data

Results flagged for a closer look

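Within a group of 4 arrays, 15 of 338 groups of named genes had 1 array far from the other 3, by Dixon's test at the 95% level. Chance flags about 1 in 20 groups. Single mated replicate 4 was the highest of its group for CG17239 (9.81, next 9.30), TRAM (11.32, next 11.04) and Nnp-1 (11.79, next 11.69), and the lowest for rdgB (8.76, next 8.93). SPR was lowest at 7.60 in single mated replicate 1, where the next array had 7.95, and Ugt304A1 at 5.29 in single mated replicate 3, where the next had 5.42. Virgin replicate 4 was the highest of its group for SPR (7.52, next 7.23) and inaC (7.81, next 7.65) and the lowest for SmF (12.07, next 12.20). Virgin replicate 2 was highest for LanB2 (8.76, next 8.47) and Sec61alpha (12.38, next 12.23) and lowest for exu (13.30, next 13.43) and hry (9.66, next 9.84). Or67c was lowest in virgin replicate 3 (3.96, next 4.09) and Rpn12 in virgin replicate 1 (12.48, next 12.51).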

How the results depend on the processing

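More than 2-fold changes were the steadiest counts, and the count of small decreases moved most. Probe sets beyond 2-fold numbered 55 to 69 higher and 15 to 20 lower when any 1 array was left out. Of 54 genes higher beyond 2-fold 50 stayed called without any 1 array, as did 13 of 14 lower, and 114 of 158 called named genes did. Leaving out 1 array gave 857 to 2698 called probe sets (482 to 1122 higher, 375 to 1576 lower) and 742 to 2268 called genes (414 to 889 higher, 328 to 1379 lower). The lowest counts came without single mated replicate 4 and the highest without double mated replicate 4. Virgin replicates 1 to 4 and single mated replicate 2 each moved the genes called lower by over 1.5 times, to 463, 567, 333, 514 and 464. Single mated replicate 4 left 328. With the replicate block, 637 probe sets and 559 genes were lower, and 1305 probe sets were called in all; the numbers do not pair the arrays. Probe sets and genes lower were 574 and 489 after cyclic loess, 1926 and 1642 after centring the arrays on their medians, 1486 and 1325 with a filter at the median level, and 1712 and 1483 with array weights. Array weights called 2953 probe sets and 2447 genes, and the 8 arrays alone gave 1465 probe sets lower. At an adjusted p under 0.01 there were 606 probe sets (362 higher, 244 lower) and 529 genes (317 higher, 212 lower). The cause of these shifts was not tested, except that the stricter threshold calls fewer by construction. Of 64 list medians 15, all close to 0, changed sign under at least 1 scaling. Uncalled genes near 0 changed sign: Rel to 0.061 after cyclic loess and between -0.044 and 0.024 without 1 array, and Acp26Aa to 0.0027 with array weights, 0.012 with the gene length trend removed, and between -0.052 and 0.049 without 1 array.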

Other observations

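Some of the increases beyond 2-fold lay in genes outside the lists, and these were chosen after their values were seen. Transport and breakdown genes were among them. CNT2, a nucleoside transporter, measured 9.67, 9.75, 9.93 and 9.90 in single mated and 8.09, 8.22, 8.36 and 8.38 in virgin females, 2.93-fold higher (95% interval 2.34 to 3.67). Mrp5, an ABC transporter, rose 2.30-fold (1.91 to 2.77), and Ctns, which moves cystine out of lysosomes, 2.11-fold (1.70 to 2.61). Bcat, the transaminase that starts branched-chain amino acid breakdown, read 9.42, 9.48, 9.77 and 10.01 after mating and 8.19, 8.49, 8.36 and 8.35 in virgins, 2.50-fold higher (2.08 to 3.00). The pyrimidine-degrading dehydrogenase gene su(r) rose 2.22-fold (1.92 to 2.56), and Miox, a myo-inositol oxygenase, 2.13-fold (1.63 to 2.77). None of these 6 genes had overlapping groups, and all kept their call in limma without any 1 array. Both traits were usual among the 54 genes they were picked from, of which 53 had groups apart and 50 kept their call. Npc2e and lectin-24A were also beyond 2-fold, and both calls ended without single mated replicate 4 (adjusted p = 0.0586 and 0.115).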
